A study of Mus musculus with 36 samples.

Results

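Gene expression was compared between ZT07 and ZT03, 4 h apart, in the left ventricle of SHAM-operated mice. The members were chosen by the sample titles: 3 SHAM arrays labelled ZT07 and 3 labelled ZT03, out of 36 arrays in the series and 18 from SHAM hearts. The 36 mice had either transverse aortic constriction (TAC), a banding of the aorta that makes the left ventricle pump against a raised pressure, or the control operation. Hearts were collected 8 weeks after surgery at 6 times of day (ZT03, ZT07, ZT11, ZT15, ZT19 and ZT23), with 3 mice for each surgery and time, which the labels call biological replicates. The SHAM ZT07 and SHAM ZT03 mice thus shared the operation, the tissue and the interval since surgery, and differed in the hour of collection. No genetic change is named. The sources used here name no strain, sex, age or light schedule. ZT is the usual abbreviation for zeitgeber time, hours counted from lights on, when nocturnal mice mostly rest.

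The heart carries its own circadian clock. The activators CLOCK and BMAL1 (encoded by Arntl) switch on the Per, Cry and Rev-erb genes (Nr1d1, Nr1d2) and output factors such as Dbp, and PER, CRY and REV-ERB proteins in turn repress the activators or their genes. In heart muscle the clock, feeding and stress hormones are known to set a daily cycle of fuel use, with enzymes of fatty acid oxidation and of glucose sparing among the genes that follow it.

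Each value below is relative expression on a log2 scale, on which 0 is each probe set's median over the 18 SHAM arrays. For a single probe set, a value of 1 stands for 2-fold above that median. Probe sets of a gene were averaged without centring again, so 0 need not be the median of a gene with several. That the scale is log2 is assumed, since no source used here states it. Since each probe set was centred before deposit, levels of different genes could not be compared, and the labelled tissue could not be checked by the levels of its markers. A change is ZT07 minus ZT03. It was tested with limma for 12393 genes, with the spread of the 18 SHAM arrays, and a gene is said to have risen or fallen where its p, adjusted by Benjamini-Hochberg over all genes, was below 0.05. No pair of arrays held identical values. The SD over genes of an array was 0.10 to 0.12 for 5 of the 6 arrays and 0.16 for ZT03 replicate 3.

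At ZT07 against ZT03, 325 of 12393 genes (2.62%) changed, of which 202 (1.63%) were higher and 123 (0.992%) lower at ZT07. The largest rise was that of Dbp, an output factor of the clock, and the largest fall that of Nppb, the gene of B-type natriuretic peptide. The median change was 0.35 among the genes that rose and -0.31 among those that fell, and 49 genes (0.395%) also had a fold of at least 1.5, 36 of them higher and 13 lower. A change of 2-fold or more was seen in 10 genes that rose and 2 that fell. The 3 ZT07 arrays all lay above the 3 ZT03 arrays in 202 of the 202 genes that rose, and all below them in 122 of the 123 that fell, the exception being Sh3bp2. Of all genes measured, 7.15% had all ZT07 arrays above and 10.3% had them all below. The genes that changed were chosen by the test on these same arrays, which favours such a separation, so it is no further evidence. At an unadjusted p below 0.05, 1701 genes passed in the limma test. The count rested on few mice: without ZT07 replicate 1 it was 189, without ZT07 replicate 2 it was 214, without ZT03 replicate 2 it was 197, without ZT03 replicate 3 it was 204, and without ZT03 replicate 1 it was 591.

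Markers of other tissues were compared between the times as well. Of 18 marker lists, the atrial one differed most: the mean of its 7 genes was -0.97 to -0.41 on the ZT07 arrays, against -0.38 to 0.13 on the ZT03 arrays. On the other 12 SHAM arrays it ran from -0.80 to 0.28. All 7 genes had lower means at ZT07, none past the threshold. In 5 of them all ZT07 arrays lay below all ZT03 arrays, against 10.3% of all genes. Nppa, atrial natriuretic peptide, stood at -0.49, -1.45 and -0.72 at ZT07, against 0.00, -0.38 and 0.15 at ZT03 (change -0.81 ± 0.27 (SE), limma adjusted p = 0.141). With the atrial mean as a covariate, an alternative added after the data were seen, 111 genes passed (70 higher, 0.565%, and 41 lower, 0.331%), 106 of them among the 325. Of the 93 genes described below that passed, 43 did not pass with it. The atrial mean did not overlap between ZT07 and ZT03, so this fit separates atrial tissue from the hour of collection only in part. A gene that did not pass with the covariate may follow either, and the fit does not tell which. The part of atrial tissue in the changes was not tested beyond this. In bulk tissue, fewer cells of a type and less RNA per cell cannot be told apart. Thymocyte markers (mean 2.22) on ZT11 replicate 3 and airway markers (mean 1.21) on ZT23 replicate 3 entered only the estimate of the spread, and without these arrays 401 genes passed.

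The gene lists used from here on were chosen with earlier results of these data known, so their counts and ranks describe and are no independent evidence. Of the 20 clock genes listed, 18 were measured, and 12 changed: 9 rose and 3 fell, against 1.63% and 0.992% of all genes. The repressors Per1, Per2, Per3, Cry2, Nr1d1 and Nr1d2 and the output factors Dbp, Tef and Hlf were higher at ZT07, and the activators Arntl and Clock and the repressor Nfil3 were lower. The median change of the list was 0.30, and that of all genes -0.02. The same 12 genes passed when any of the 6 arrays was left out in turn, and 9 rose and 3 fell with the atrial covariate as well. After quantile normalization 8 rose and 2 fell, since Nr1d1 (change 0.19, limma adjusted p = 0.657) and Arntl (-0.64, adjusted p = 0.222) did not pass. Clock, Per1 and Per3 did not pass without all arrays of replicate 2 (adjusted p = 0.114, 0.0657 and 0.123), nor Clock with its probe set of largest SD (adjusted p = 0.0788), nor Nfil3 with the spread of all 36 arrays (adjusted p = 0.085).

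For the genes of opposite movement, promoter windows from RefSeq (GRCm38.p6, 250 bases before to 50 after the annotated start) show whether the known binding letters of the clock lie there. Of the 325 genes that changed, 267 matched a window, among them 11 of the 12 clock genes. Windows are printed only for genes that hold a match, and capitals mark it in each case. In the Per1 window (chr11:69098699-69098998, plus strand) they mark an E-box, CACGTG, the site bound by CLOCK and BMAL1, 166 bases before the start. In that of Per3 (chr4:151044616-151044915, minus strand) they mark 2 D-boxes, TTATGTAA, the site bound by DBP, TEF, HLF and NFIL3, 205 and 158 bases before the start.
Per1: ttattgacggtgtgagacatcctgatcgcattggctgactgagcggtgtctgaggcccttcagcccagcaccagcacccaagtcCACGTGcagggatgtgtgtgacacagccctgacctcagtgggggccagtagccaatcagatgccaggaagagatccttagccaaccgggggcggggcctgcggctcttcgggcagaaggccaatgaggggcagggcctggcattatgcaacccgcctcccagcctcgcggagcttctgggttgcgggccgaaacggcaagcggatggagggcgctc
Per3: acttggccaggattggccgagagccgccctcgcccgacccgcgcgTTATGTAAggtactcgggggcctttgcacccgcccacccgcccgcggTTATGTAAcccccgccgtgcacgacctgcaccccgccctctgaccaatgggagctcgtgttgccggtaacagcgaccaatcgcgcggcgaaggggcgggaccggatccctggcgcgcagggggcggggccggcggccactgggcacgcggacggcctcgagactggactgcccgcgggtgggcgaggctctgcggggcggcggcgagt
Arntl (chr7:113207261-113207560, plus strand) and Nfil3 (chr13:52980990-52981289, minus strand) each hold TAGGTCA, the core of the element shared by ROR activators and REV-ERB repressors, 30 bases after the start in Arntl and, on the opposite strand, 12 bases before it in Nfil3.
Arntl: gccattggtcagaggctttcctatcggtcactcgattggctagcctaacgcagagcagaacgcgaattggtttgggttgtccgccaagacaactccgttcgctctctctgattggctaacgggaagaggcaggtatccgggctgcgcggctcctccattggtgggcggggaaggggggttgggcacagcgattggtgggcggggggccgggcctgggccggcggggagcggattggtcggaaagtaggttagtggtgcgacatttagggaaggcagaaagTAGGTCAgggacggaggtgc
Nfil3: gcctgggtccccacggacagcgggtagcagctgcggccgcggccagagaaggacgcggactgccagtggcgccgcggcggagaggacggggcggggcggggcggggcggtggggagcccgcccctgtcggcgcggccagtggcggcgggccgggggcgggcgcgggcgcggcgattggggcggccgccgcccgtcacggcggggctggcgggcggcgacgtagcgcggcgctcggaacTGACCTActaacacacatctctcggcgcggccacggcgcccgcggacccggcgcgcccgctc
Matches were sought on both strands. The E-box was present in 7.15% of all 32851 windows, in 10.6% of those of genes that rose and in 10.1% of those of genes that fell. Counted by gene, it was held by 2187 of 27025 genes. Of the clock genes with a window, 2 of the 8 that rose (Per1 and Tef) and 0 of the 3 that fell held it. The D-box was present in 0.938% of all windows, and in 0.461% and 0.676% of those of genes that rose and fell. It was held by 1 of the 8 clock genes that rose (Per3) and 0 of the 3 that fell, against 299 of 27025 genes. TAGGTCA was present in 2.61% of all windows, in 0.922% of those of genes that rose and in 3.38% of those of genes that fell. Of the clock genes, 0 of the 8 that rose and 2 of the 3 that fell held it, against 802 of 27025 genes. A match describes letters in a window and shows no binding.

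Dbp stood at 1.84, 1.73 and 1.90 on the ZT07 arrays, against -0.53, -0.66 and -0.94 on the ZT03 arrays. The arrays were far apart, with a change of 2.53 ± 0.15 (SE, n = 3 per time), or 5.79-fold, and a limma adjusted p of 4.84e-08. Over the day its SHAM means were -0.71 at ZT03, 1.82 at ZT07, 1.82 at ZT11, 0.68 at ZT15, -0.64 at ZT19 and -0.94 at ZT23, so ZT07 already stood at the level of ZT11. Tef, a factor of the same family, rose by 0.52 ± 0.05 (adjusted p = 2.05e-05) and Hlf, the other relative, by 0.55 ± 0.08 (adjusted p = 0.000668), and both had higher means at ZT11. Nfil3, a repressor that binds the same sites as these 3 factors, moved the other way. It stood at -0.61, -0.35 and -0.61 at ZT07, against -0.09, -0.02 and 0.41 at ZT03, a change of -0.62 ± 0.10 (adjusted p = 0.00281).

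Of the Rev-erb genes, Nr1d1 had 1.13, 1.26 and 1.20 at ZT07, against 0.59, 0.77 and 0.58 at ZT03, a change of 0.55 ± 0.08 (limma adjusted p = 0.000852). After quantile normalization the change was 0.19 and did not pass (adjusted p = 0.657). Nr1d1 was already above 0 at ZT03, and its later SHAM means were 0.28 at ZT11, -0.29 at ZT15 and -0.92 at ZT19. Nr1d2 had 0.61, 0.48 and 0.53 at ZT07, against -0.12, -0.48 and -0.77 at ZT03, a 2-fold rise (SE 0.11 on the log2 scale, adjusted p = 5.98e-05), with a mean of 0.65 at ZT11. Among the activators, Arntl had -0.16, -0.15 and -0.16 at ZT07, against 0.42, 0.36 and 0.43 at ZT03. Both groups were tight, with a change of -0.56 ± 0.07 (adjusted p = 0.000235, or 0.222 after quantile normalization). Clock changed by -0.32 ± 0.04 (adjusted p = 0.000686). Npas2, a partner of BMAL1 related to CLOCK, had a change of -0.23 ± 0.07 that did not pass (adjusted p = 0.0851).

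Per1, which responds to stress hormones as well as to the clock, had 0.81, 0.50 and 0.50 at ZT07, against 0.06, -0.31 and -0.09 at ZT03. The groups did not overlap, and the change was 0.71 ± 0.12 (limma adjusted p = 0.00331). Per2 rose by 0.49 ± 0.07 (adjusted p = 0.000742) and was higher later, with a SHAM mean of 0.48 at ZT15. Per3 rose by 0.31 ± 0.05 (adjusted p = 0.00158). Cry2 rose by 0.53 ± 0.08 (adjusted p = 0.000819). Its paralogue Cry1 had a change of -0.11 ± 0.06 (adjusted p = 0.48) and reached its highest SHAM mean, 0.31, at ZT19. The other listed genes that did not pass were Bhlhe40 (0.30, adjusted p = 0.0753), Bhlhe41 (0.05, adjusted p = 0.754), Rora (0.13, adjusted p = 0.26) and Rorb (-0.07, adjusted p = 0.761).

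**Figure D1:**
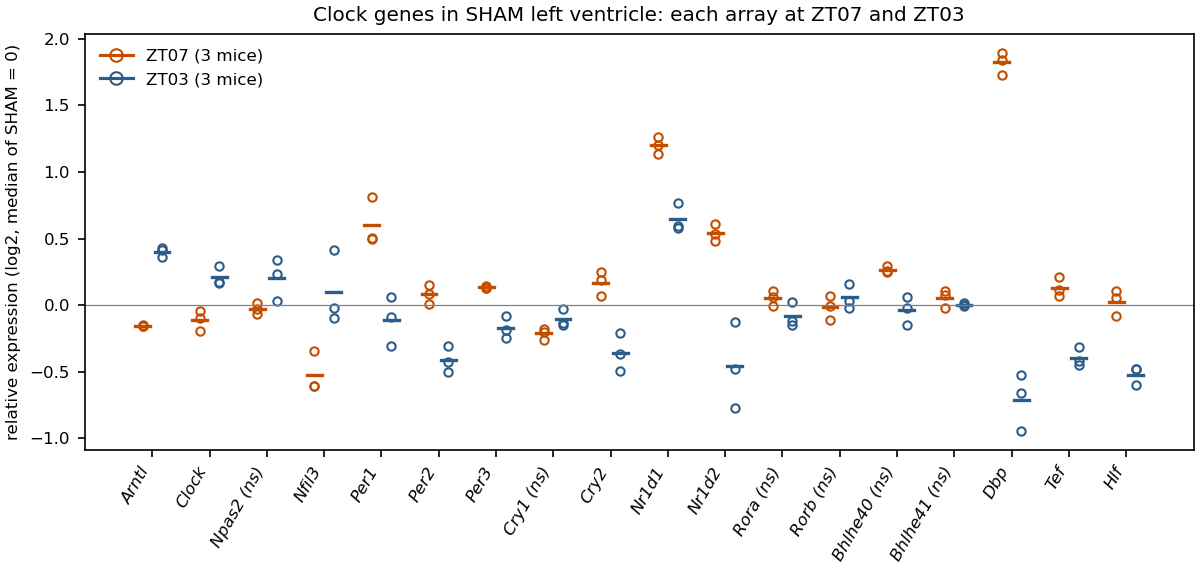
Relative expression (log2, median of the SHAM arrays = 0 for each probe set) of the 18 measured clock genes. Each of the 3 ZT07 and 3 ZT03 arrays is shown, with bars at the group means and "ns" beside genes that did not pass. Dbp lies between 1.73 and 1.90 at ZT07 and between -0.94 and -0.53 at ZT03, while Arntl, Clock and Nfil3 are lower at ZT07.

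Among 16 measured genes of the list of clock-linked outputs and modifiers, 5 rose and 1 fell, with a median change of 0.09. Of all genes, 1.63% rose and 0.992% fell. After quantile normalization 3 of the 16 rose and 1 fell. Usp2, a deubiquitinase, had 0.39, 0.48 and 0.32 at ZT07, against -0.66, -0.66 and -0.65 at ZT03 (change 1.05 ± 0.08 (SE), limma adjusted p = 1.27e-06). Its 3 ZT03 arrays were almost equal. Tspan4, a tetraspanin, rose by 1.01 ± 0.07 (adjusted p = 1.87e-07). Nampt, the enzyme that limits the rate of NAD salvage, rose by 0.37 ± 0.07 (adjusted p = 0.00585, or 0.111 with the atrial covariate, with which 3 of the 5 passed). Tfrc, the transferrin receptor, had -0.57, -0.68 and -0.67 at ZT07, against -0.02, 0.13 and -0.15 at ZT03, and fell by 0.62 on the log2 scale (adjusted p = 0.00126).

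The genes of fuel choice and fat use that passed all rose. Of 21 measured members of the list of fasting and PPAR-alpha targets, 7 rose and none fell, against 1.63% and 0.992% of all genes. The median change was 0.29, and the 7 were Pdk4, Ucp3, Acot1, Cpt1a, Mlycd, Slc25a20 and Fabp4. Pdk4, a kinase that shuts off pyruvate dehydrogenase and so spares glucose, had 1.46, 2.06 and 1.69 at ZT07, against 0.51, 0.56 and -0.13 at ZT03. The lowest ZT07 array lay well above the highest ZT03 array, and the change was 1.42 ± 0.20 (SE), or 2.68-fold (limma adjusted p = 0.000742). Ucp3, a mitochondrial carrier of the uncoupling protein family, had 1.20, 1.34 and 0.98 at ZT07, against 0.24, 0.38 and -0.20 at ZT03 (change 1.03 ± 0.12, adjusted p = 9.79e-05). ZT07 held the highest SHAM mean of both, and at ZT11 the means were -0.53 for Pdk4 and 0.02 for Ucp3. Acot1, a thioesterase of acyl-CoA, rose by 0.75 ± 0.13 (adjusted p = 0.0034) and was at -0.25 by ZT11.

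Smaller rises were those of Fabp4, a fatty acid carrier that in the heart marks endothelial cells (0.55 ± 0.08 (SE), limma adjusted p = 0.000786), and of 3 genes that control entry of fatty acids into mitochondria. Of these, Cpt1a, the carnitine acyltransferase of the outer membrane, rose by 0.31 ± 0.05 (adjusted p = 0.00341). Mlycd, which removes the malonyl-CoA that inhibits that enzyme, rose by 0.46 ± 0.09 (adjusted p = 0.00805). Slc25a20, the carnitine carrier of the inner membrane, rose by 0.34 ± 0.07 (adjusted p = 0.00973). These 3 were named after their values were seen. Acacb, which makes malonyl-CoA at the mitochondrion, rose as well (0.24 ± 0.06, adjusted p = 0.0263, or 0.398 with the atrial covariate). In the list of triglyceride storage and lipolysis, 4 of 16 measured genes rose and none fell (median 0.16), against 1.63% and 0.992% of all genes. The 4 were the lipase gene Pnpla2 (0.33 ± 0.06), the droplet coat gene Plin4 (0.57 ± 0.09), and Gpam (0.55 ± 0.10) and Dgat2 (0.28 ± 0.06), at the first and last steps of triglyceride synthesis. After quantile normalization 7 fasting targets and 3 genes of the triglyceride list rose. With the atrial covariate 3 of the 7 fasting targets passed, and Acot1 had an adjusted p of 0.087. Gpam (adjusted p = 0.11), Dgat2 (adjusted p = 0.138), Cpt1a (adjusted p = 0.0955), Mlycd (adjusted p = 0.187) and Slc25a20 (adjusted p = 0.212) did not pass with it. Markers of white fat did not separate the times: their mean was -0.59 to -0.01 on the ZT07 arrays, against -0.52 to -0.06 on the ZT03 arrays.

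Lists of energy metabolism, ribosomal protein and proteasome genes showed little. In the tricarboxylic acid cycle list, which also holds cytosolic enzymes outside the cycle, 1 of 23 measured genes rose, against 1.63% of all genes. It was such an enzyme, Idh1, the cytosolic isocitrate dehydrogenase (0.52 ± 0.09 (SE), limma adjusted p = 0.0024). Of 55 measured oxidative phosphorylation genes, 23 glycolysis genes, 36 ribosomal protein genes and 31 proteasome genes, none passed in either direction, with median changes of 0.02, -0.02, 0.00 and 0.11. The glucose transporter gene Slc2a1 had a change of 0.29 that fell short (adjusted p = 0.0514). Ppp1r3c, which brings a phosphatase to glycogen and favours its storage, had the second largest fall of all. It stood at -0.92, -1.16 and -0.97 at ZT07, against 0.19, -0.10 and 0.01 at ZT03 (change -1.05 ± 0.10, adjusted p = 2.05e-05). Its mean was -0.37 at ZT11 and 0.15 at ZT15.

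Genes known to respond to glucocorticoids had the highest median change of the 32 gene lists, 0.38. The lists were chosen with earlier results of these data known, so this rank only describes. Of 20 measured members of the glucocorticoid list 8 rose and none fell, against 1.63% and 0.992% of all genes. They were Pdk4, Zbtb16, Cebpb, Per1, Klf9, Tsc22d3, Mt1 and Mt2, so the list shares Per1 with the clock list and Pdk4 with the fasting list. Zbtb16, a zinc finger transcription factor, had 0.59, 0.42 and 0.13 at ZT07, against -0.61, -0.63 and -0.83 at ZT03 (change 1.07 ± 0.18 (SE), limma adjusted p = 0.00263). Cebpb, a leucine zipper transcription factor, rose by 0.80 ± 0.16 (adjusted p = 0.0113). Both had higher means at ZT11, 0.72 and 0.65. Klf9, a Krüppel-like repressor, rose by 0.54 ± 0.08 (adjusted p = 0.00126), with 6 of its 7 probe sets in that direction. Tsc22d3, the leucine zipper gene used as a readout of the hormone, had 0.15, -0.25 and -0.05 at ZT07, against -0.29, -0.48 and -0.64 at ZT03. The groups nearly touched, with a rise of 0.42 ± 0.10 (adjusted p = 0.0287), and its highest SHAM mean, 0.37, was at ZT15. Klf15 had a change of 0.44 that did not pass (adjusted p = 0.0539). With the atrial covariate 4 of the 8 passed, and the adjusted p was 0.061 for Zbtb16 and 0.078 for Cebpb. After quantile normalization 5 members of the list rose.

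Of 25 measured genes of oxidative stress defence, 7 rose and none fell, against 1.63% and 0.992% of all genes, with a median of 0.07. The metallothioneins Mt2 and Mt1, metal-binding proteins that also stand in the glucocorticoid list, rose by 0.71 ± 0.10 (SE, limma adjusted p = 0.000819) and 0.34 ± 0.07 (adjusted p = 0.00778). Cat, catalase, had 0.25, 0.30 and 0.21 at ZT07, against -0.02, -0.39 and -0.59 at ZT03 (change 0.59 ± 0.11, adjusted p = 0.00458). Hmox1, the inducible haem oxygenase, had 0.38, 0.37 and 0.38 at ZT07, against 0.11, 0.05 and -0.03 at ZT03, a change of 0.33 ± 0.05 (adjusted p = 0.000807). The ZT07 values of Hmox1 were nearly the same in the 3 mice, while the ZT03 values of Cat were widely spread. Nqo1, a quinone reductase (0.41 ± 0.08), Gclm, a subunit of the enzyme that starts glutathione synthesis (0.47 ± 0.10), and Gstm1, a glutathione transferase (0.18 ± 0.04), rose too. Of 23 measured genes of ubiquitin ligases, FOXO targets and autophagy, 5 rose and none fell (median 0.12), against the same shares of all genes. They were the F-box gene Fbxo31 (0.43 ± 0.06, adjusted p = 0.000742), the transcription factor Foxo3 (0.35 ± 0.05, adjusted p = 0.000547), the autophagy receptors Sqstm1 (0.40 ± 0.07) and Bnip3 (0.34 ± 0.07), and the transcriptional regulator Cited2 (0.43 ± 0.10). With the atrial covariate 2 of the 7 and 2 of the 5 passed. After quantile normalization 6 genes of the first list and 5 of the second rose.

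**Figure D2:**
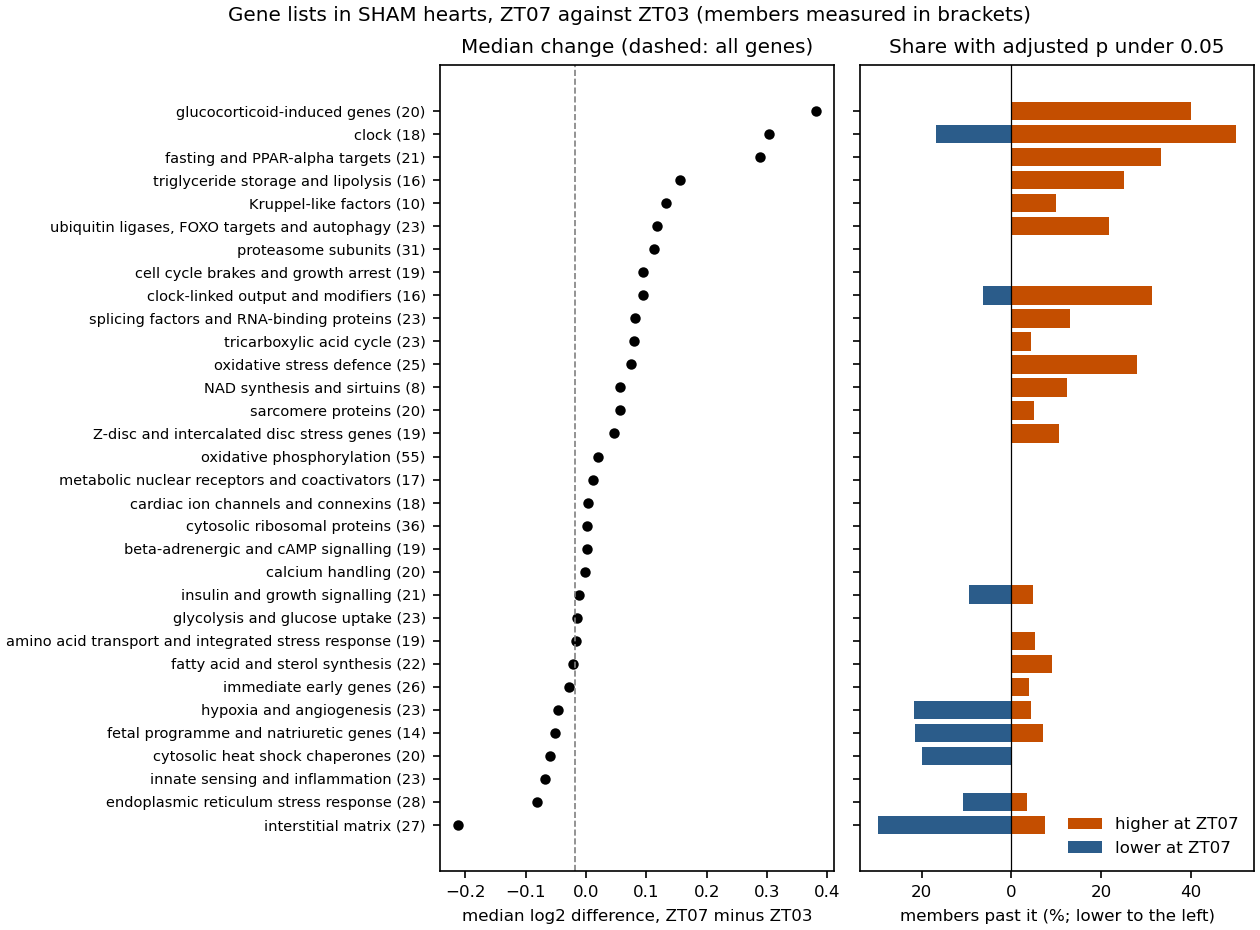
Left, the median change (log2, ZT07 minus ZT03) of each of the 32 gene lists, with measured members in brackets and a dashed line at the median of all 12393 genes. Right, the share of each list's members higher (to the right) or lower (to the left) at ZT07 with an adjusted p under 0.05, with the glucocorticoid, clock and fasting lists at the top and the interstitial matrix list at the bottom.

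Of 20 measured cytosolic heat shock genes, 4 fell and none rose, against 0.992% and 1.63% of all genes, with a median change of -0.06. They were Hsp90aa1, the inducible HSP90, its co-chaperone Chordc1, the HSP70 co-chaperone Dnaja1, and Hsph1, an HSP110 that recharges HSP70. Hsp90aa1 had -0.50, -0.49 and -0.62 at ZT07, against -0.13, 0.05 and -0.01 at ZT03 (change -0.51 ± 0.09 (SE), limma adjusted p = 0.00313). Chordc1 had -0.75, -0.54 and -0.45 at ZT07, against -0.35, 0.16 and -0.04 at ZT03 (change -0.51 ± 0.10, adjusted p = 0.00953). The groups did not overlap in either gene, though the lowest ZT03 array of Chordc1 was only a little above its highest ZT07 array. The means of all 4 genes were below 0 at both ZT07 and ZT11, and above it at ZT19, where those of Hsp90aa1 and Dnaja1 were 0.32 and 0.41. Between 1 and 4 of the 4 remained when 1 of the 6 arrays was left out, with 1 left without ZT07 replicate 1 or without ZT03 replicate 2 and 2 left without ZT07 replicate 3 or without ZT03 replicate 3. With the atrial covariate none passed (adjusted p = 0.054 for Chordc1 and 0.081 for Hsp90aa1). After quantile normalization 1 member of the list fell.

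The Chordc1 window is shown because it holds 3 overlapping matches to the heat shock element (GAA, any 2 bases, TTC, any 2 bases, GAA, on either strand), bound by heat shock factors, around the start itself (chr9:18292017-18292316, plus strand, RefSeq GRCm38.p6).
Chordc1: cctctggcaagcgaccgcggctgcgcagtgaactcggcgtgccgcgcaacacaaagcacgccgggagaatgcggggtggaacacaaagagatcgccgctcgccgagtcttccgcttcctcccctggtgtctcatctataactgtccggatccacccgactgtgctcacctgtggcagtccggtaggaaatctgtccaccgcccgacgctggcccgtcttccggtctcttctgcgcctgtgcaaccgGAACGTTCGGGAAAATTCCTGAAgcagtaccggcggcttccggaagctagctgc
Of 3 heat shock genes that fell and had a window, 2 held this element, in 3 of their 6 windows. It was present in 0.603% of all windows, in 0.922% of those of genes that rose and in 2.7% (4 of 148) of those of genes that fell. Of these 4 windows, 3 are those of the heat shock genes.

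In the endoplasmic reticulum stress list, 3 of 28 measured genes fell and 1 rose, against 0.992% and 1.63% of all genes, and the median was -0.08. Manf, a secreted protein of the stressed reticulum, had -0.85, -0.32 and -0.47 at ZT07, against 0.18, 0.56 and 0.18 at ZT03 (change -0.86 ± 0.18 (SE), limma adjusted p = 0.0117). Creld2 (-0.34 ± 0.07, adjusted p = 0.0129) and the calcium-binding chaperone Calr (-0.23 ± 0.06, adjusted p = 0.0476) were lower as well. Herpud1, which helps to clear misfolded proteins from the reticulum, went the other way, with 0.10, -0.11 and -0.14 at ZT07, against -0.62, -0.72 and -0.87 at ZT03. Its rise of 0.69 ± 0.08 (adjusted p = 6.94e-05) passed whichever array was left out. None of the 3 genes that fell passed without ZT07 replicate 1 or without ZT03 replicate 2, and 1 passed without ZT07 replicate 3. With the atrial covariate Manf (adjusted p = 0.0571) and Calr (adjusted p = 0.317) did not pass. After quantile normalization 1 member of the list fell and 1 rose. Serpinh1, the collagen chaperone HSP47, which is in neither list, had -0.81, -0.59 and -0.59 at ZT07, against 0.03, 0.20 and 0.28 at ZT03 (change -0.83 ± 0.09, adjusted p = 6.16e-05).

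The interstitial matrix list had the lowest median change of the 32 lists, -0.21. Of its 27 measured genes 8 were lower and 2 higher, against 0.992% and 1.63% of all genes. The 8 were 7 collagen genes and Mmp2, a gelatinase, and the 2 that rose were inhibitors of matrix proteases. Col3a1, fibrillar collagen type III, had -0.49, 0.01 and 0.07 at ZT07, against 0.36, 0.65 and 0.66 at ZT03 (change -0.69 ± 0.12 (SE), limma adjusted p = 0.00341). Col15a1, a collagen of basement membrane zones, changed by -0.50 ± 0.07 (adjusted p = 0.000742). Of the others, Col1a1, Col5a2, Col6a1, Col6a2 and Col6a3 changed by -0.38 to -0.30 and Mmp2 by -0.28. ZT07 replicate 1 was the lowest of the ZT07 arrays for each of these 8 genes. Timp4, the inhibitor most typical of the heart, had 0.70, 0.34 and 0.56 at ZT07, against -0.40, -0.85 and -0.73 at ZT03 (change 1.19 ± 0.15, adjusted p = 0.000328). Timp3 rose by 0.63 ± 0.07 (adjusted p = 0.00013).

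Fibroblast markers were read beside the matrix genes. The mean of 9 markers was -0.18 to 0.00 on the ZT07 arrays, against 0.07 to 0.14 on the ZT03 arrays. Of the 9, 7 had lower means at ZT07, and the median change was -0.15. For 3 (Col1a1, Col3a1 and Lum) all ZT07 arrays lay below all ZT03 arrays, against 10.3% of all genes. The 2 that passed, Col1a1 and Col3a1, are also matrix genes. The others had changes of -0.33 (Col1a2), -0.23 (Lum), -0.15 (Dpt), -0.03 (Pdgfra), 0.00 (Dcn), 0.01 (Tcf21) and 0.08 (Gsn), none past the threshold. The part of fibroblast number was not tested further. Of the 8 matrix genes that fell, 3 passed without ZT07 replicate 1, 5 without ZT07 replicate 2, 4 without ZT03 replicate 2 and 3 without ZT03 replicate 3, and 2 matrix genes were lower with the atrial covariate. Both Timp genes passed in every one of these. After quantile normalization 5 matrix genes were lower and 2 higher.

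Of 23 measured genes of hypoxia and angiogenesis, 5 fell and 1 rose, against 0.992% and 1.63% of all genes, with a median of -0.05. Egln3, a prolyl hydroxylase that marks hypoxia-inducible factor for decay, had -0.51, -0.54 and -0.48 at ZT07, against 0.35, 0.32 and 0.05 at ZT03 (change -0.75 ± 0.10 (SE), limma adjusted p = 0.000625). Vegfa, the main growth factor of vessels, had -0.43, -0.39 and -0.41 at ZT07, against 0.16, 0.04 and 0.09 at ZT03 (change -0.51 ± 0.09, adjusted p = 0.00313). The ZT07 arrays of both genes lay close together. The VEGF receptor gene Kdr changed by -0.40 ± 0.10 (adjusted p = 0.0348), the apelin gene Apln by -0.28 ± 0.07 (adjusted p = 0.0258) and its receptor gene Aplnr by -0.81 ± 0.19 (adjusted p = 0.0291). Bnip3, already named, was the member that rose. Of the 5 that fell, 2 remained without ZT07 replicate 1, ZT07 replicate 3, ZT03 replicate 2 or ZT03 replicate 3, and 2 with the atrial covariate. After quantile normalization 3 members of the list were lower and 1 higher. The mean of the 10 endothelial markers was -0.14 to 0.04 on the ZT07 arrays, against -0.01 to 0.13 on the ZT03 arrays, with Kdr and Emcn lower, Fabp4 higher, and Pecam1 (-0.09) and Cdh5 (-0.06) short of the threshold. Neither Kdr nor Emcn passed without ZT07 replicate 1 or with the atrial covariate. Of these 2, 1 passed without ZT07 replicate 2, ZT07 replicate 3, ZT03 replicate 2 or ZT03 replicate 3, and both without ZT03 replicate 1.

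**Figure D3:**
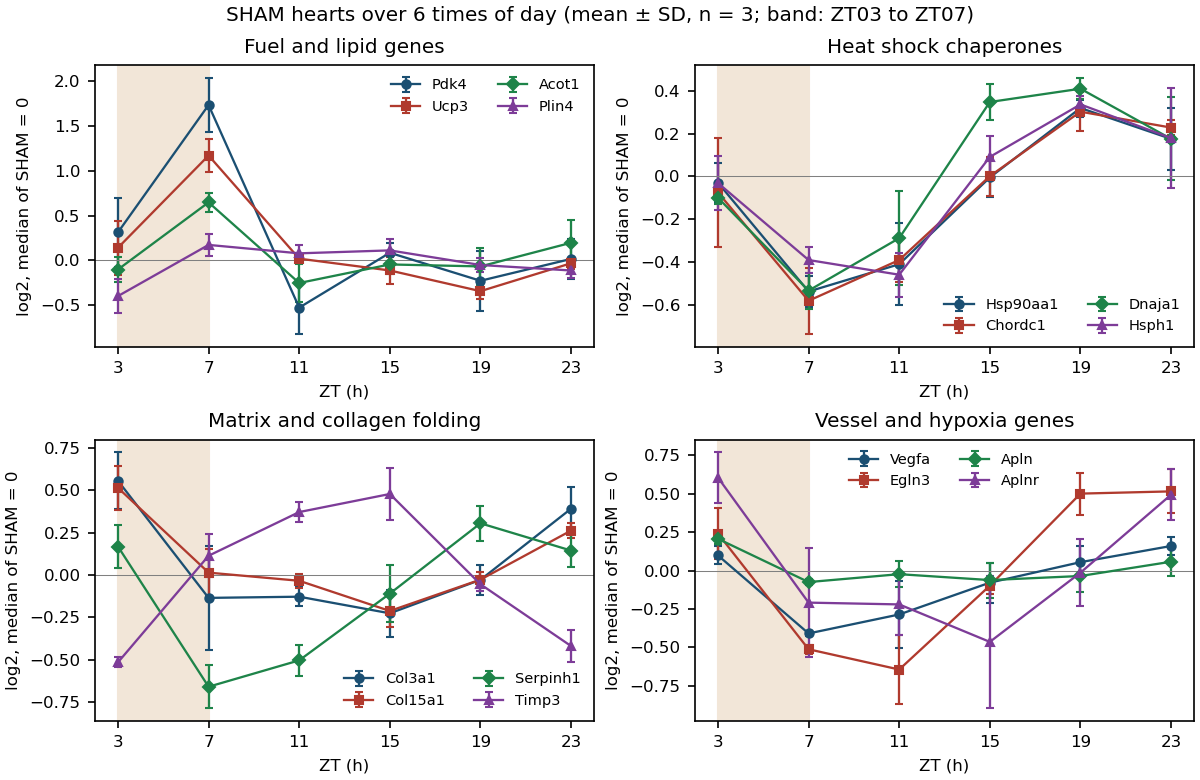
SHAM means over 6 times of day (log2, median of SHAM = 0 for each probe set) for fuel and lipid genes, heat shock genes, matrix genes and vessel genes. Error bars are 1 SD over 3 mice, and a band runs from ZT03 to ZT07. Pdk4, Ucp3 and Acot1 are high at ZT07 and back near or below 0 at ZT11, whereas the heat shock genes stay below 0 at ZT11 and lie above it at ZT19.

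Genes of the muscle cell itself changed in small number. Of all genes, 2.62% changed in either direction. Tcap, which ties titin to the Z-disc, had 0.79, 0.62 and 0.74 at ZT07, against -0.16, -0.31 and -0.74 at ZT03 (change 1.12 ± 0.11 (SE), limma adjusted p = 2.05e-05). Jup, plakoglobin of the intercalated disc, rose by 0.24 ± 0.06 (adjusted p = 0.0311), and these were the 2 of 19 measured Z-disc and intercalated disc genes that passed. Of 20 sarcomere genes 1 rose, Myh7, the slow myosin heavy chain (0.36 ± 0.09, adjusted p = 0.0443), while Myh6, the main adult myosin of the mouse, had a change of 0.20 (adjusted p = 0.111). None of 20 calcium handling genes, 18 ion channel and connexin genes or 19 genes of beta-adrenergic and cAMP signalling passed, though Kcnh2, a potassium channel gene, came close (0.31, adjusted p = 0.0501). Neither Myh7 nor Jup passed without ZT07 replicate 1, 2 or 3 or without ZT03 replicate 3, or with the atrial covariate.

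Of 14 measured genes of the fetal programme and natriuretic list, 3 fell and Myh7 rose, with a median of -0.05. Of all genes, 0.992% fell and 1.63% rose. Nppb had -0.47, -0.10 and -0.33 at ZT07, against 0.63, 0.75 and 0.99 at ZT03. The groups were wide apart, with a change of -1.09 ± 0.21 (SE) and a limma adjusted p of 0.00844, or 0.0994 with the atrial covariate. Rcan1, a regulator of calcineurin, had -0.25, -0.15 and -0.14 at ZT07, against 0.24, 0.71 and 0.61 at ZT03 (change -0.70 ± 0.10, adjusted p = 0.000742). Rrad, a small GTPase that restrains calcium channels, had -0.56, -0.01 and -0.22 at ZT07, against 0.18, 0.62 and 0.52 at ZT03 (change -0.70 ± 0.14, adjusted p = 0.00778). Rcan1 and Rrad passed with the covariate. Of the 3 that fell, 1 remained without ZT07 replicate 1 and 2 without ZT03 replicate 2 or without ZT03 replicate 3.

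The remaining lists held few changes, and their counts stand beside 1.63% of all genes that rose and 0.992% that fell. Of 21 measured genes of insulin and growth signalling, Pik3r1, a regulatory subunit of PI3 kinase, rose (0.57 ± 0.14 (SE), limma adjusted p = 0.0311), and Ppp1r3c and the kinase gene Akt1 fell (Akt1 -0.23 ± 0.05, adjusted p = 0.0221). Pik3r1 did not pass without ZT07 replicate 1, ZT07 replicate 2, ZT03 replicate 2 or ZT03 replicate 3, nor with the atrial covariate (adjusted p = 0.361), and with its probe set of largest SD its adjusted p was 0.705. Akt1 did not pass without the first 3 of these arrays, nor with the covariate (adjusted p = 0.114). Among 23 splicing and RNA-binding genes 3 rose, with a median of 0.08. Cirbp, the cold-inducible RNA-binding protein, had 0.86, 0.75 and 0.71 at ZT07, against 0.13, -0.19 and -0.17 at ZT03 (change 0.85 ± 0.11, adjusted p = 0.000512). Srsf5, a splicing factor, rose by 0.50 ± 0.09 (adjusted p = 0.00503), and Sf3b1, of the spliceosome core, by 0.33 ± 0.08 (adjusted p = 0.0237), but only Cirbp of the 3 passed with the atrial covariate. Ier3 was the 1 riser of 26 immediate early genes (0.53 ± 0.09, adjusted p = 0.00341), and Egr1, whose ZT03 arrays ran from -0.05 to 1.43, had a change of -0.85 ± 0.28 (adjusted p = 0.138). Eif4ebp1, a brake on translation, was the 1 riser of 19 genes of amino acid transport and the integrated stress response (0.37 ± 0.05, adjusted p = 0.000492). None of 23 genes of innate sensing, 19 cell cycle brakes or 17 metabolic nuclear receptors and coactivators passed. Of 22 genes of fatty acid and sterol synthesis, Acacb and Fdft1 rose. Neither passed without ZT07 replicate 2, ZT07 replicate 3 or ZT03 replicate 1, or with the atrial covariate, and the probe sets of Fdft1 were split, 2 of 4 in each direction.

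Several of the largest changes lay outside these lists. Gdap10 rose by 1.13 ± 0.16 (SE, limma adjusted p = 0.000764). Tacc2, which encodes a coiled-coil protein of the centrosome, had 0.31, 0.46 and 0.20 at ZT07, against -0.62, -0.52 and -0.59 at ZT03 (change 0.90 ± 0.10, adjusted p = 9.79e-05). Rgcc, a regulator of the cell cycle, rose by 0.89 ± 0.11 (adjusted p = 0.000208), and Serpinb6b, a protease inhibitor of the serpin family, by 0.80 ± 0.12 (adjusted p = 0.000887). Adam19, a membrane metalloprotease, had -0.27, -0.14 and -0.07 at ZT07, against 0.95, 0.78 and 0.74 at ZT03 (change -0.98 ± 0.09, adjusted p = 2.05e-05). Its ZT03 mean of 0.82 was close to that of ZT23, 0.91, and it stayed at -0.27 at ZT11. Tuba8, an alpha-tubulin, changed by -0.61 ± 0.10 (adjusted p = 0.00186), and Alas1, the first enzyme of haem synthesis, by -0.55 ± 0.09 (adjusted p = 0.00313).

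The genes described so far that passed, whether named by rank or as list members, numbered 93, with Hsd17b11, described with TAC, among them. Whichever of the 6 arrays was left out, 60 of them passed the limma threshold, all 12 clock genes included. The other 33 missed it without 1 array or more: 29 without ZT07 replicate 1, 17 without ZT07 replicate 2, 18 without ZT07 replicate 3, 3 without ZT03 replicate 1 and 22 each without ZT03 replicate 2 and ZT03 replicate 3. Among the larger changes, Nppb missed it without ZT07 replicate 1 or ZT03 replicate 3, Manf and Rrad without ZT07 replicate 1 or ZT03 replicate 2, Cebpb without either of those or ZT07 replicate 3, and Aplnr without any of these 4. The list members Cited2, Col1a1, Col5a2, Col6a1, Col6a2, Col6a3, Emcn, Gclm, Gstm1, Kdr, Mmp2, Mt1 and Tsc22d3, and Sh3bp2, were named after their values were seen.

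**Figure D4:**
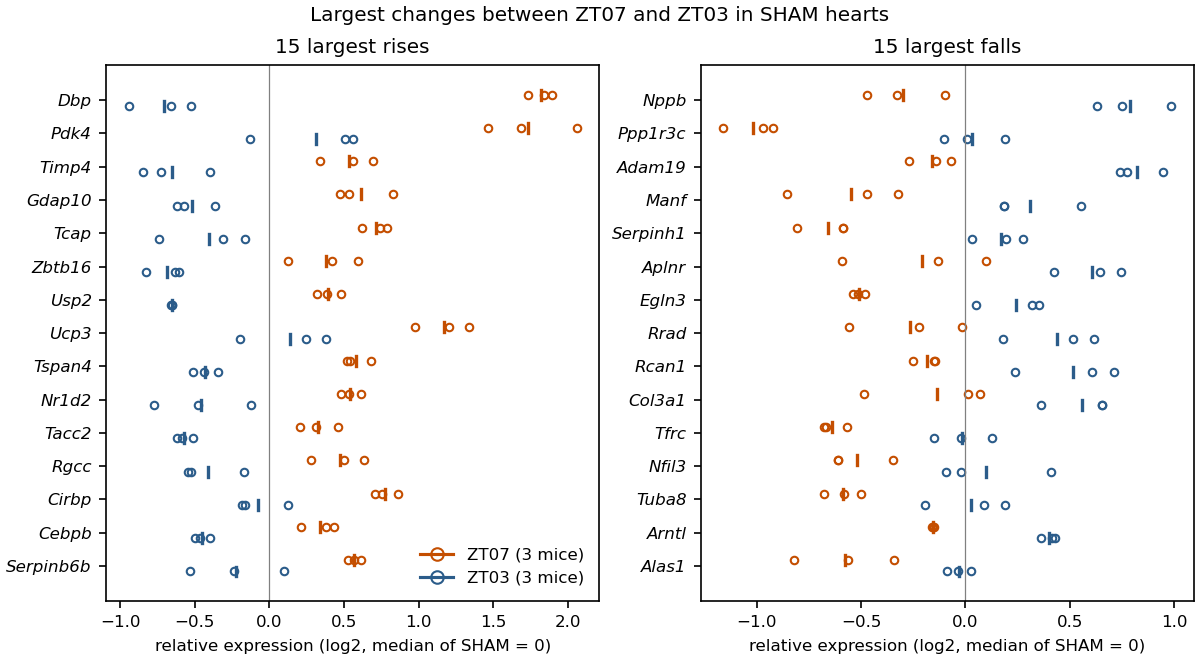
Relative expression (log2, median of SHAM = 0 for each probe set) on each of 3 ZT07 and 3 ZT03 arrays, with ticks at the group means. The 15 largest rises are on the left and the 15 largest falls on the right. No gene shown has a ZT07 array among its ZT03 arrays, which the choice of genes by the test on these same arrays favours.

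Set in the whole SHAM day, the 4 h step was an early part of the cycle for some genes and an isolated peak for others. In a limma F-test for any difference among the 6 times, 705 genes (5.69%) passed, among them 168 of the 202 that rose and 104 of the 123 that fell. Of the 202, 140 had their highest mean at ZT07, 28 at ZT11, 31 at ZT15 and 3 at ZT19, and 127 had their lowest mean at ZT03. The median of their means was -0.15 at ZT03, 0.18 at ZT07, 0.07 at ZT11, 0.05 at ZT15, -0.06 at ZT19 and -0.08 at ZT23. Of the 123, 74 had their lowest mean at ZT07 and 71 their highest at ZT03. The F-test includes this very step on the same arrays, so its overlap with the genes that changed was to be found in large part by construction. The extremes, too, follow in part from the choice of genes by this step. Both describe and are not tested. The other steps of 4 h gave fewer genes in the same fit: 22 for ZT11 against ZT07, 18 for ZT15 against ZT11, 36 for ZT19 against ZT15, 9 for ZT23 against ZT19 and 1 for ZT03 against ZT23. Neighbouring steps share 3 arrays each, and the difference between the steps was not tested. The arrays with thymocyte or airway markers, ZT11 replicate 3 and ZT23 replicate 3, are among those compared in the steps from or to ZT11 and ZT23.

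The same step was then read in TAC hearts, which have their own 6 arrays and their own median of 0. There 0 of 12393 genes (0.0%) passed in limma with the spread of the 18 TAC arrays, and 279 had an unadjusted p below 0.05. With the spread of all 36 arrays 1 passed. Of the 202 genes that rose in SHAM, 181 (89.6%) had a positive change in TAC, against 43.42% of all genes, with a median of 0.12. Of the 123 that fell, 85 (69.11%) had a negative change in TAC, against 56.47% of all genes, with a median of -0.08. All 3 TAC arrays at ZT07 lay above all 3 at ZT03 for 71 of the 202, against 4.2% of all genes, and below them for 20 of the 123, against 5.86% of all genes. The change was smaller in TAC for 196 of the 202 and 121 of the 123, but these genes were chosen for their change in SHAM, which favours that count. The difference between the surgeries was tested directly, and 0 genes (0.0%) passed in limma over all 36 arrays, with 345 at an unadjusted p below 0.05. This count was 7 without TAC ZT03 replicate 3, 2 without SHAM ZT03 replicate 1, 1 without TAC ZT07 replicate 1, and 203 with arrays weighted by quality.

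Dbp had 1.30, 1.49 and 1.49 at ZT07 in TAC hearts, against 0.52, 0.19 and -0.77 at ZT03. The step was 1.45 ± 0.27 (SE) in TAC and 2.53 ± 0.15 in SHAM (limma adjusted p of the difference = 1). Nr1d1 in TAC had 1.24, 1.12 and 1.23 at ZT07, against 1.20, 1.48 and 0.77 at ZT03, so the groups overlapped (TAC 0.05 ± 0.13, SHAM 0.55 ± 0.08, adjusted p of the difference = 1). The ZT03 mice varied more than the ZT07 mice in both genes. The 5 genes with the smallest p for the difference were Tacc2, Ucp3, Hsd17b11, Pdk4 and Fbxo31, with adjusted p-values of 0.181 to 0.292. Pdk4 in TAC had 0.85, -0.51 and 0.04 at ZT07, against 0.66, 0.31 and 0.06 at ZT03 (TAC -0.22 ± 0.28, SHAM 1.42 ± 0.20). Ucp3 in TAC had 0.55, 0.14 and 0.27 at ZT07, against 0.29, 0.35 and -0.04 at ZT03 (TAC 0.12 ± 0.13, SHAM 1.03 ± 0.12). Hsd17b11, a hydroxysteroid dehydrogenase, changed by 0.05 ± 0.08 in TAC and 0.66 ± 0.10 in SHAM. For Tacc2 the change was -0.02 ± 0.13 in TAC and 0.90 ± 0.10 in SHAM, and for Fbxo31 -0.02 ± 0.08 and 0.43 ± 0.06. TAC ZT03 replicate 3 had an airway marker mean of 1.52. Without it, 876 genes had an unadjusted p below 0.05 in limma for the TAC step, against 279 with it, and 0 passed. For the difference between the surgeries 722 did so without it, against 345 with it, and 7 passed. The atrial mean was -0.37 to -0.10 at ZT07 in TAC, against -0.33 to 0.18 at ZT03. The part of airway or atrial tissue in the TAC values was not tested beyond this.

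**Figure D5:**
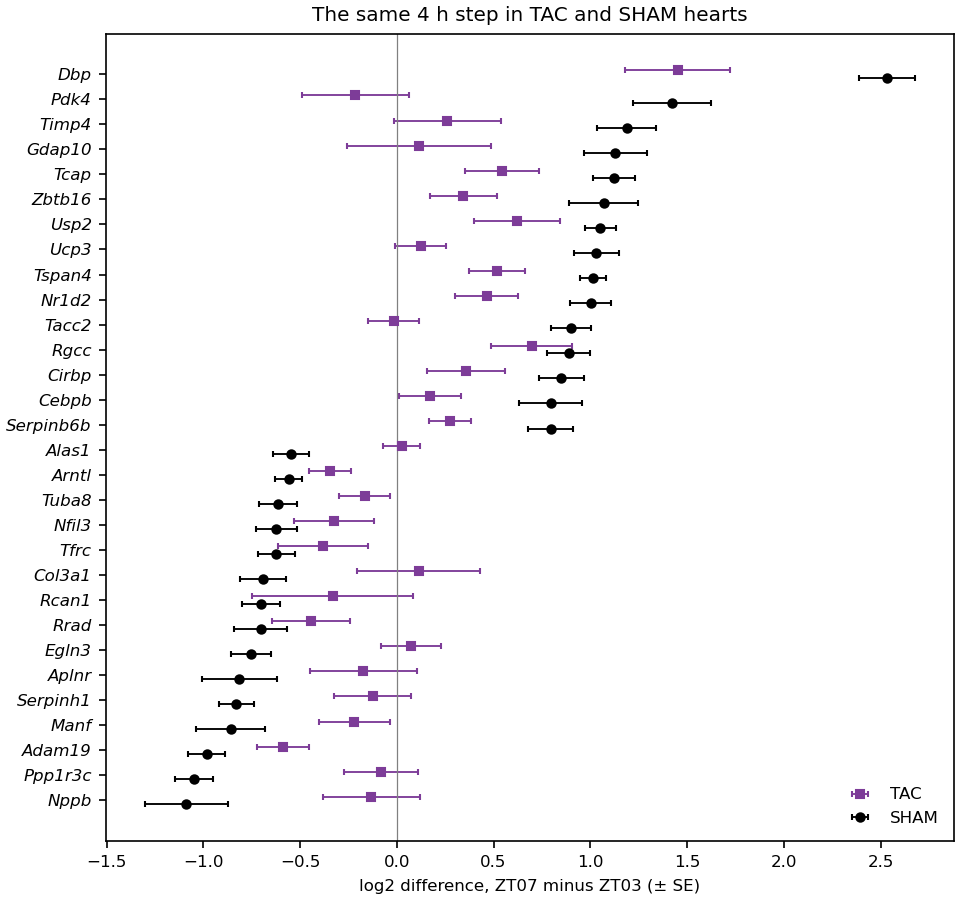
Change from ZT07 minus ZT03 (log2, with bars of 1 SE from the fit) in TAC (squares) and SHAM (circles) for the 15 largest rises and 15 largest falls of SHAM. Dbp is 1.45 in TAC and 2.53 in SHAM, Pdk4 is -0.22 in TAC and 1.42 in SHAM, and none of these differences between the surgeries passed.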

How the data were processed

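Per the labels' protocols, hearts were snap frozen, RNA was extracted with Trizol, and biotinylated cRNA was made from 6 ug of total RNA for Affymetrix arrays. The authors deposited 1 value per probe set and array, taken here as log2. No source used here states the log base, how probes were summarised or how arrays were normalized. For each of the 22690 probe sets the median was within 5e-07 of 0 over the 18 SHAM and over the 18 TAC arrays, so levels cannot be compared between surgeries. All columns were mapped through the sample titles.

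Gene names came from the annotation of the platform, checked by Entrez identifier (20351 of 20380 matched): of the probe sets, 20393 had 1 symbol (13 controls among them left out), 691 had several and 1606 had no entry. Probe sets of a gene were averaged, 4956 of 12393 genes having several. Group means over 6 times were fitted with limma 3.58.1 in R 4.3.3 on the 18 SHAM arrays, the 18 TAC arrays, and all 36 arrays for the difference between surgeries, with moderated tests and Benjamini-Hochberg adjustment over all genes at 0.05. SE values come from that fit, with 3 arrays per group. The number of arrays limits the precision. On simulated data with the measured spread, 200 genes changed between ZT07 and ZT03 in SHAM were recovered at 7% for a change of 0.2, 93% for 0.5 and 99% for 1.

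Named genes were the 15 largest rises and 15 largest falls past the threshold, all measured clock genes, up to 4 members of each other list with the smallest p, and the 5 smallest p of the difference between surgeries, skipping clone-like symbols. The 32 gene lists, 18 marker lists and tests were chosen with earlier results of these data known. Alternatives are given at the end. Figures were drawn with matplotlib 3.10.9.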

Additional observations from a re-analysis of the deposited data

Results flagged for a closer look

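Probe sets without a single gene name were not used in the comparisons above. Tested by themselves in the same limma fit, 9 of 691 probe sets with several symbols (1.3%) and 25 of 1555 that were not listed and were no controls (1.61%) passed between ZT07 and ZT03 in SHAM, against 422 of 20380 probe sets with 1 symbol (2.07%) and 1 of 64 control probe sets (1.56%). They are given because some of them changed by more than any control probe set, the largest change of which was 0.32 in size. That change, of -0.32 (adjusted p = 0.0225), belonged to a control probe set for the mouse transferrin receptor, whose gene Tfrc fell by 0.62, so it is not a measure of technical spread alone. Of those with several symbols, 7 passed and changed by more, all 7 of them higher at ZT07. Of those not listed, 15 did so, 11 higher and 4 lower at ZT07, with changes from -0.50 to 1.86.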

How the results depend on the processing

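All 325 genes that changed between ZT07 and ZT03 in SHAM kept their direction in each alternative in which they were fitted, and 22 of the 77 named genes among them passed in every one. The count was 204 with the spread of the 6 arrays alone, 122 with that of all 36 arrays, 209 after quantile normalization (147 higher and 62 lower), 49 with a fold of at least 1.5, and 1735 (749 higher and 986 lower) with array weights, whose estimation gave a convergence warning. Leaving out arrays or a replicate number gave 56 to 591, the lowest without all arrays of replicate 2 (127 without those of replicate 3). Atrial markers as a covariate, added after the data were seen, gave 111. The replicate number as a block gave 394, and 797 in the test over 6 times against 705. Same-numbered ZT07 and ZT03 arrays did not deviate together (correlations of 0.12, -0.04 and -0.03 in SHAM), so the numbers were not taken as pairs, and not every array correlated best with its own number. The test over 6 times gave 524 to 1097 with single arrays left out. The difference between TAC and SHAM gave 0 genes with the block, 203 with array weights and 0 to 7 with single arrays left out. The TAC step gave 0 with the block and 1 with the spread of all 36 arrays. Among genes that had not passed, the sign turned for Rorb without replicate 3 (0.023, against -0.129 without replicate 1), and with the atrial covariate for Bhlhe41 (-0.033), Myl7 (0.03), Sln (0.001) and Sirt2 (-0.014). The cause of these shifts was not tested.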

Other observations

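Other genes that passed between ZT07 and ZT03 in SHAM are given here with values only, and were chosen after their values were seen. They are not among the 93 genes counted above. Their results with single arrays left out or with the atrial covariate are not given. Of all 325 genes that changed, 106 passed with that covariate, 180 without ZT07 replicate 1 and 187 without ZT03 replicate 2. Sult1a1, a phenol sulfotransferase, had 0.68, 0.31 and 0.41 at ZT07, against -0.08, -0.52 and -0.38 at ZT03 (change 0.79 ± 0.12 (SE), limma adjusted p = 0.00158). Aox1, aldehyde oxidase, had 0.50, 0.64 and 0.59 at ZT07, against 0.05, -0.14 and -0.20 at ZT03 (change 0.68 ± 0.07, adjusted p = 5.36e-05). The groups did not overlap in either gene. Xdh, xanthine dehydrogenase, rose by 0.76 ± 0.13 (adjusted p = 0.00266) and Adh1, an alcohol dehydrogenase, by 0.73 ± 0.15 (adjusted p = 0.0111). Car4, a carbonic anhydrase anchored to the cell surface, rose by 0.72 ± 0.09 (adjusted p = 0.000184), and Clpx, a subunit of the mitochondrial ClpXP protease, by 0.62 ± 0.06 (adjusted p = 2.5e-05). Ehhadh, an enzyme of peroxisomal fatty acid oxidation outside the fasting list, rose by 0.56 ± 0.08 (adjusted p = 0.000725), and Slc27a1, a fatty acid transporter, by 0.44 ± 0.09 (adjusted p = 0.00852). Slc40a1, the iron exporter ferroportin, had 0.28, 0.60 and 0.34 at ZT07, against 0.02, -0.14 and -0.16 at ZT03 (change 0.50 ± 0.09, adjusted p = 0.00464), while Tfrc, the iron importer, had fallen.

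Among genes that fell, P4ha1, a subunit of the hydroxylase that prepares collagen for folding, had -0.52, -0.49 and -0.46 at ZT07, against -0.04, 0.02 and 0.15 at ZT03 (change -0.53 ± 0.10 (SE), limma adjusted p = 0.00464). Its relative P4ha2 changed by -0.25 ± 0.06 (adjusted p = 0.0443). Col4a1, a collagen of basement membranes, changed by -0.51 ± 0.10 (adjusted p = 0.00775). Actg1, a cytoplasmic actin, had -0.29, -0.15 and -0.38 at ZT07, against 0.11, 0.50 and 0.14 at ZT03 (change -0.52 ± 0.11, adjusted p = 0.016). Tpm4, a tropomyosin, changed by -0.52 ± 0.09 (adjusted p = 0.00365) and Tuba1a, an alpha-tubulin, by -0.46 ± 0.08 (adjusted p = 0.00458). In SHAM, Actg1, Tpm4 and Tuba1a each had their lowest mean at ZT07.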
